A study of Sus scrofa with 75 samples.

Results

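The miRNAs described here are miR-191, miR-425, miR-423, miR-103 and miR-107 of the pig, a set of abundant or housekeeping-type miRNAs that are often proposed as references for small RNA measurements in blood. They were taken by name, with every arm listed in the miRNA count table, which gave 7 mature miRNAs: miR-191, miR-425-5p, miR-425-3p, miR-423-5p, miR-423-3p, miR-103 and miR-107. The table held 457 mature names, of which 317 had a read and 209 passed the filter on low counts and were tested, and all 7 members were among the 209. The rule used their names and no level in these libraries, although the set was proposed with earlier results of the same data known.

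A miRNA is cut from a hairpin precursor and loaded into an Argonaute protein, where the seed, bases 2 to 8 of the mature strand, pairs with target mRNAs. Either arm of the hairpin (5p or 3p) can become the mature strand, and the arm that is not loaded is usually degraded. These miRNAs are expressed in many tissues, blood cells among them, and miR-103 and miR-107 lie within genes for pantothenate kinases, enzymes of coenzyme A synthesis. A reference miRNA is useful when its level differs little between libraries, so the spread of each member over the libraries is the measurement of interest.

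Peripheral blood mononuclear cells (PBMC) were isolated by density gradient from synthetic Large White pigs, and their small RNA was sequenced. The 8 control pigs had the usual crate housing of suckling piglets. The 5 topsoil pigs were housed with a new supply of soil each day, starting at day 4 and stopping with weaning at day 20. After weaning, no pig of either group had access to soil. Blood drawn at day 11, day 20 and day 56 gave 39 libraries from 13 pigs, each sampled at 3 ages. The study asked how expression over time changed with early-life soil exposure. Day 56 was therefore measured after exposure had ended, and weaning, the change of housing and age cannot be told apart in it. A library labelled as a day 56 control, replicate 7, stood apart with 2570910 reads over all entries, against 9573372 to 13678837 in the other 7 libraries of its group.

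The mature sequences of the 7 members are shown because they set which members share targets and which could share reads. Each was read from the Sscrofa11.1 genome at the RefSeq annotation, 5′ to 3′, with the seed in capitals.
miR-191: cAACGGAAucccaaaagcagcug
miR-425-5p: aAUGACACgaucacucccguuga
miR-425-3p: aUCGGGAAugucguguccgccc
miR-423-5p: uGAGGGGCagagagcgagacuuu
miR-423-3p: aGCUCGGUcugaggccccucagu
miR-103: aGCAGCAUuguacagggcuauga
miR-107: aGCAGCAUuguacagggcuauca
Only miR-103 and miR-107 had a seed in common, GCAGCAU, and they were identical at 22 of 23 bases, with the single substitution G22C (miR-103 first, counted from the 5′ end). Of the 209 tested miRNAs, 179 had a sequence in the annotation, and none of these outside the set carried a seed of a member. Because a single base near the 3′ end separates miR-103 from miR-107, the split of reads between them is uncertain wherever that base was trimmed, edited or misread.

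The members came from 6 hairpins in 5 parts of the genome, each within an intron of a protein-coding gene on the same strand. The mature miR-191 lay at chr13:31655533-31655555 (minus strand) in DALRD3. In the same gene, miR-425-5p lay at chr13:31655040-31655062 and miR-425-3p at chr13:31655000-31655021, with 410 bases between the MIR425 and MIR191 genes. The arms of MIR423 lay at chr12:46211534-46211556 and chr12:46211570-46211592 (plus strand) in NSRP1. The miR-103 sequence occurred at chr16:55329491-55329513 (plus strand) in PANK3 and at chr17:31808848-31808870 (minus strand) in PANK2, and miR-107 lay at chr14:101420756-101420778 (minus strand) in PANK1, where an intron of an uncharacterised lncRNA ran on the opposite strand. The 2 hairpins that gave 2 measured arms are shown with both arms in capitals, because the ratio of these arms is described further on.
MIR425: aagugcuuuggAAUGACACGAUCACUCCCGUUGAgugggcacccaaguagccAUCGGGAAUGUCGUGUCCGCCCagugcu
MIR423: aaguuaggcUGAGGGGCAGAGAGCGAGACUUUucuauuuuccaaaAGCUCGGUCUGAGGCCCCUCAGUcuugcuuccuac
Reads of miR-103 were listed under both of its genes, and the 2 entries were equal in 19 libraries and never more than 14 reads apart. The entry with the larger total was used, so the level of miR-103 is not assigned to either gene.

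Read totals did not bear out the word abundant for the whole set. With 4931087 reads over the 39 libraries, miR-191 ranked 5 among the 457 names, and miR-423-5p ranked 8 with 2016716 reads. The remaining members were far less abundant: miR-103 ranked 36 (152822 reads), miR-423-3p 44 (90373 reads), miR-107 58 (39655 reads), miR-425-5p 60 (34650 reads) and miR-425-3p 110 (5714 reads). The mature strands were 22 or 23 bases long, so these read numbers compare strands of nearly equal length. A red blood cell miRNA, miR-486, took 11.8% to 95.5% of the reads in a library. Outside miR-486, miR-191 made up 5.45% and miR-423-5p 2.23% of all reads.

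Libraries held 1634831 to 13494765 reads after repeated entries were removed, and 389906 to 6343113 of these were not miR-486. The control replicate 7 library of day 56 had the fewest in all, yet 1332667 of its reads were not miR-486, inside that range. Its miR-486 share, 18.5%, was the lowest of its group, and why its values stood apart was not tested. The share of miR-486 averaged 88.6% ± 8.51 (SD, n = 8) in control and 87.1% ± 7.09 (n = 5) in topsoil pigs at day 11, 78.6% ± 12.5 and 87.8% ± 8.66 at day 20, and 46.4% ± 21.5 and 34.4% ± 15.6 at day 56. The 3 red blood cell miRNAs listed (miR-486, miR-451 and miR-144) were measured. Their summed level had a control median of 1968740 CPM (read counts relative to the scaled library size) at day 11. It was 556280 CPM at day 20 and 229783 CPM at day 56. That sum was mostly miR-486. On totals that leave out miR-486, the other 2 had control medians of 1780, 4005 and 732 CPM at these ages. They rose from day 11 to day 20 while the sum fell. In topsoil pigs they went from 2568 to 1900 CPM over those days while the sum rose. From day 11 to day 56 the 3 lymphocyte miRNAs (miR-150, miR-342 and miR-181a) went the other way from the red blood cell sum. Their control median was 36932 CPM at day 11 and 77713 CPM at day 56. The 5 leukocyte and myeloid miRNAs listed were present in each group, at medians of 1625 to 4270 CPM. The 2 vessel and platelet arms of miR-126 were at or below 45.1 CPM in each library, and their median was 0 in topsoil pigs at day 20. In libraries of mixed cells, fewer cells of a type and less RNA per cell cannot be told apart, and the part of cell makeup in the values below was not tested.

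Levels are given as CPM after upper quartile scaling, which sets the libraries to a common level at the 75% point of their counts. Fold changes are from the quasi-likelihood test of edgeR with Benjamini-Hochberg adjustment over the 209 miRNAs, and a difference was called at an adjusted p under 0.10. Age comparisons had the pig as a block. The pigs were sampled repeatedly, and each treatment group was a separate set of animals.

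Of the 7 members, miR-103 had the smallest SD under upper quartile scaling, and under that scaling it was the only one that edgeR called in any comparison. In control pigs, miR-103 ranged from 197 to 448 CPM at day 11 (median 267), from 356 to 746 at day 20 (median 408) and from 212 to 472 at day 56 (median 303). In topsoil pigs, its 5 values were 311, 235, 301, 463 and 422 CPM at day 11, then 290, 301, 317, 253 and 369 at day 20, and 277, 350, 402, 341 and 383 at day 56. Control pigs were thus highest at day 20, where 4 of 5 topsoil values lay below the lowest control value, while at the other ages the groups overlapped widely. From day 11 to day 20, miR-103 rose in control pigs by 0.64 on the log2 scale (SE 0.19, edgeR adjusted p = 0.0857), and 7 of 8 pigs showed a higher value. The median of all 209 miRNAs moved by 0.30 in the same comparison, so miR-103 rose by 0.34 relative to it. That relative rise was 0.26 to 0.35 under the 5 scalings tried. In this comparison 5.26% of the tested miRNAs were called, and 1 of the 7 members. DESeq2 called 15.8% of the miRNAs and 2 members, miR-103 and miR-107.

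The call for miR-103 rested on the settings. It was lost with TMM scaling, where the change was 0.49 (adjusted p = 0.242), and with DESeq2 size factors, where it was 0.41 (adjusted p = 0.28). Leaving out control pig 1, 2, 3, 4, 6 or 8 or topsoil pig 5 also ended it, with adjusted p-values of 0.113 to 0.272. The control day 20 value of 746 CPM came from replicate 2, and without that pig the change was 0.53. The study listed miR-103 among miRNAs that it selected from these same libraries, so its change is not independent evidence.

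The near twin, miR-107, was not called by edgeR in any comparison under upper quartile scaling, and DESeq2 called it in control pigs from day 11 to day 20 and in topsoil pigs from day 20 to day 56. Control values of miR-107 ran from 34.5 to 102 CPM at day 11 (median 59.6), from 70.8 to 195 at day 20 (median 88.9) and from 45.8 to 187 at day 56 (median 80.9). Topsoil values were 91, 61.8, 69.3, 100 and 89.7 CPM at day 11, 76.1, 69.6, 78.4, 57.6 and 77.5 at day 20, and 87.6, 125, 178, 122 and 106 at day 56. Each topsoil pig had more miR-107 at day 56 than at day 20, while the control ranges at those ages overlapped. The median of all 209 tested miRNAs also rose in topsoil pigs over those ages, by 0.57, and moved by -0.03 in control pigs. The control value of 187 CPM at day 56 came from the replicate 7 library, which held 1208 reads of miR-107. Without it the highest control value was 99.9 CPM, below 4 of the 5 topsoil values, and the difference between treatments was 0.70 (SE 0.25, edgeR adjusted p = 0.519) in place of 0.45 (SE 0.30, adjusted p = 0.924). The control change from day 11 to day 20 was 0.69 (SE 0.26, edgeR adjusted p = 0.135), beside a median of 0.30 for all tested miRNAs. The topsoil change from day 20 to day 56 was 0.79 (SE 0.35, edgeR adjusted p = 0.157), beside a median of 0.57. In the treatment by age interaction, which asked whether the groups changed differently over time, miR-103 and miR-107 were the 2 members under an unadjusted p of 0.05, and both had an edgeR adjusted p = 0.462. The interaction called 0% of the tested miRNAs and 0 members, with 22 of 209 miRNAs under an unadjusted p of 0.05, and DESeq2 called 2 miRNAs (0.957%) and no member.

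The most abundant member, miR-191, was the most variable of the abundant ones under upper quartile scaling. Control values of miR-191 ran from 5976 to 19024 CPM at day 11 (median 12000), from 5476 to 20749 at day 20 (median 12218) and from 2148 to 30313 at day 56 (median 12034). In topsoil pigs its values were 11718, 13997, 16698, 6448 and 8003 CPM at day 11, 23743, 7423, 22395, 13340 and 14060 at day 20, and 8141, 13006, 7284, 7336 and 8913 at day 56. Control medians stayed near 12000 CPM while single control libraries at day 56 lay 14.1-fold apart, and all 5 topsoil values at day 56 fell inside that range. The lowest value, 2148 CPM, came from the control replicate 7 library at day 56. At day 56, topsoil pigs had a difference of -0.80 from control pigs (SE 0.46, edgeR adjusted p = 0.924), and between day 20 and day 56 their change was -0.72 (SE 0.42, adjusted p = 0.305). Neither difference passed the test. Without the replicate 7 library the day 56 difference was -1.002 (SE 0.34, edgeR adjusted p = 0.519), and the lowest control value was then 6359 CPM.

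Its neighbour within DALRD3, miR-425-5p, was far lower and had higher medians at later ages. Control values of miR-425-5p ran from 29.2 to 86.7 CPM at day 11 (median 32.2), from 34.0 to 87.7 at day 20 (median 78.8) and from 56.6 to 132 at day 56 (median 82.7). Topsoil values were 33.1, 30.7, 55.9, 75.2 and 39 CPM at day 11, 82.8, 61.1, 77.4, 32.7 and 42 at day 20, and 95.1, 106, 74.3, 118 and 116 at day 56. All 5 topsoil pigs and 7 of 8 control pigs had more miR-425-5p at day 56 than at day 11. Of its variance over the 39 libraries, 47.8% lay between the 6 groups, the largest share of any member under this scaling. No change between adjacent ages was called: the control change was 0.59 (SE 0.29, edgeR adjusted p = 0.311) from day 11 to day 20, and the topsoil change was 0.83 (SE 0.40, adjusted p = 0.232) from day 20 to day 56. The medians of all tested miRNAs in these comparisons were 0.30 and 0.57, in that order.

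The less abundant arm of MIR425, miR-425-3p, was the rarest member. It had 0 to 449 reads in a library, and reads in 37 of 39. Both libraries without a read were topsoil libraries of day 20, replicates 1 and 4, where 0 reads allow up to 1.11 and 0.691 CPM (3 reads each, counting error only). The other topsoil values at day 20 were 5.17, 7.19 and 14.3 CPM, and the topsoil values at day 56 were 12.1 to 18.5 CPM. A single control library of day 56, replicate 6, held 1 read, against 81 to 449 reads in the other 7. The topsoil change from day 20 to day 56, 2.03 on the log2 scale (SE 1.09, edgeR adjusted p = 0.277), was not called by edgeR. With 2 of 5 libraries at 0 this fitted value depends on the prior count.

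The more abundant arm of MIR423, miR-423-5p, had all 39 libraries within 2-fold of its median under upper quartile scaling, 37 or 38 under 3 other scalings and 12 under total counts. Control values of miR-423-5p ran from 3147 to 6273 CPM at day 11 (median 4414), from 3100 to 8155 at day 20 (median 6578) and from 2339 to 6281 at day 56 (median 4022). Topsoil values were 2310, 3480, 4705, 4824 and 2651 CPM at day 11, 5154, 4602, 4982, 4168 and 2736 at day 20, and 3781, 6801, 4578, 3028 and 2820 at day 56. Control pigs were highest at day 20, and 6 of 8 had a lower value at day 56. That change was -0.50 (SE 0.24, edgeR adjusted p = 0.243) and was not called. With total counts it was 0.41 while the median of all miRNAs moved by 0.89, and relative to that median it was -0.48, beside -0.47 under upper quartile scaling. It was -0.75 (adjusted p = 0.0578) with totals that leave out miR-486, where miR-103 was called as well, at -0.62 (adjusted p = 0.0493). That setting called 13.9% of the tested miRNAs. In this comparison 12.4% of the tested miRNAs were called, and 0 members, in edgeR under upper quartile scaling. There 42 of 209 miRNAs and 1 member had an unadjusted p under 0.05. DESeq2 called 14.8% of the miRNAs and 0 members.

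The other arm, miR-423-3p, ran from 68.4 to 321 CPM over all 39 libraries, with group medians of 127 CPM (topsoil pigs, day 11) to 237 CPM (control pigs, day 20). Its largest difference between treatments was -0.59 at day 20 (SE 0.30, edgeR adjusted p = 0.413), where the 5 topsoil values, 118 to 194 CPM, all lay inside the control range of 117 to 278 CPM.

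**Figure D1:**
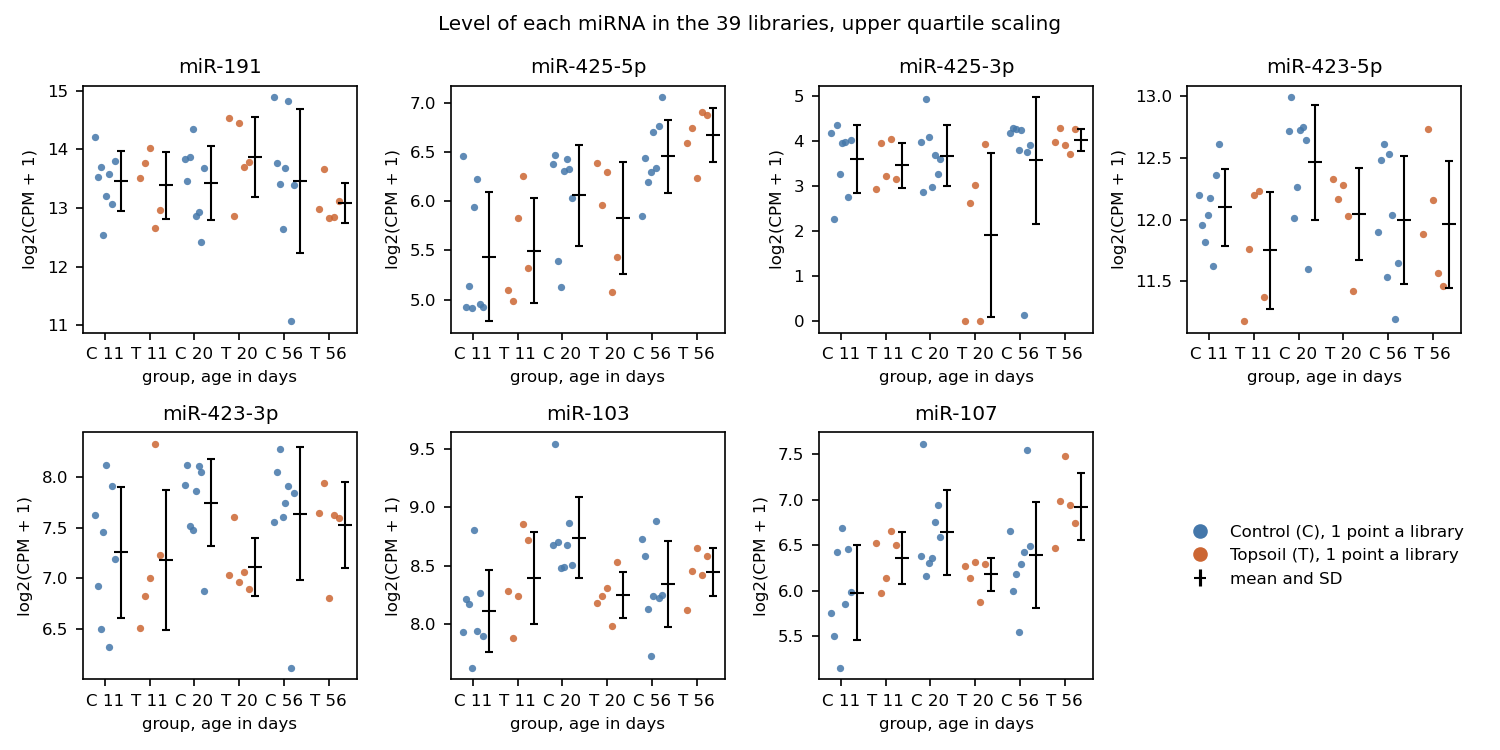
Level of each of the 7 miRNAs as log2(CPM + 1) after upper quartile scaling (vertical axis) by treatment (C for control, T for topsoil) and age in days (horizontal axis). Each point is a library and the bar gives the mean and SD. At each age the control and topsoil ranges overlap for each member. For miR-103 the highest values are in control pigs at day 20 (356 to 746 CPM), and 2 topsoil libraries of day 20 have no read of miR-425-3p.

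Few members were called in the remaining age comparisons. Topsoil pigs had 0% of tested miRNAs and 0 members called from day 11 to day 20 in edgeR, with 6 miRNAs and 0 members under an unadjusted p of 0.05, and DESeq2 called 5 miRNAs (2.39%) but no member. From day 20 to day 56, 9.57% of the tested miRNAs and 0 members were called in topsoil pigs. An unadjusted p under 0.05 was found for 44 of 209 miRNAs and for 2 members (miR-107 and miR-425-5p). DESeq2 called 21.1% of the tested miRNAs in that comparison, and 2 members, miR-107 (adjusted p = 0.0868) and miR-425-3p (adjusted p = 0.064). For miR-425-3p, the topsoil libraries of replicates 1 and 4 at day 20 had 0 reads. The median change of all tested miRNAs was 0.57 there, against 0.40 for the members. Relative to that median, miR-103 was at -0.31 although its own change was 0.27, so its direction depended on which was taken as zero.

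Between treatments, no member was called at any age. Topsoil against control at day 11 gave 0% of the tested miRNAs and 0 members in edgeR, with 7 miRNAs and 0 members under an unadjusted p of 0.05. At day 20, 0.957% were called, again with 0 members, and 28 miRNAs but 0 members were under 0.05. At day 56, 0% were called, with 5 miRNAs and 0 members under 0.05. DESeq2 called no member at any age, and 0 miRNAs (0%) at day 11, 11 (5.26%) at day 20 and 0 (0%) at day 56. The median of the 7 members was -0.51 at day 20 beside -0.29 for all tested miRNAs, with 6 of 7 members lower in topsoil pigs, and only miR-191 higher (0.39, SE 0.37). With total counts miR-191 was at -0.73 and the median of all miRNAs at -1.24, so relative to the median miR-191 was higher in both, by 0.51 and by 0.68 under upper quartile scaling. At day 11 and day 56 the members' medians were -0.13 and 0.05, beside -0.03 and 0.07 for all.

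**Figure D2:**
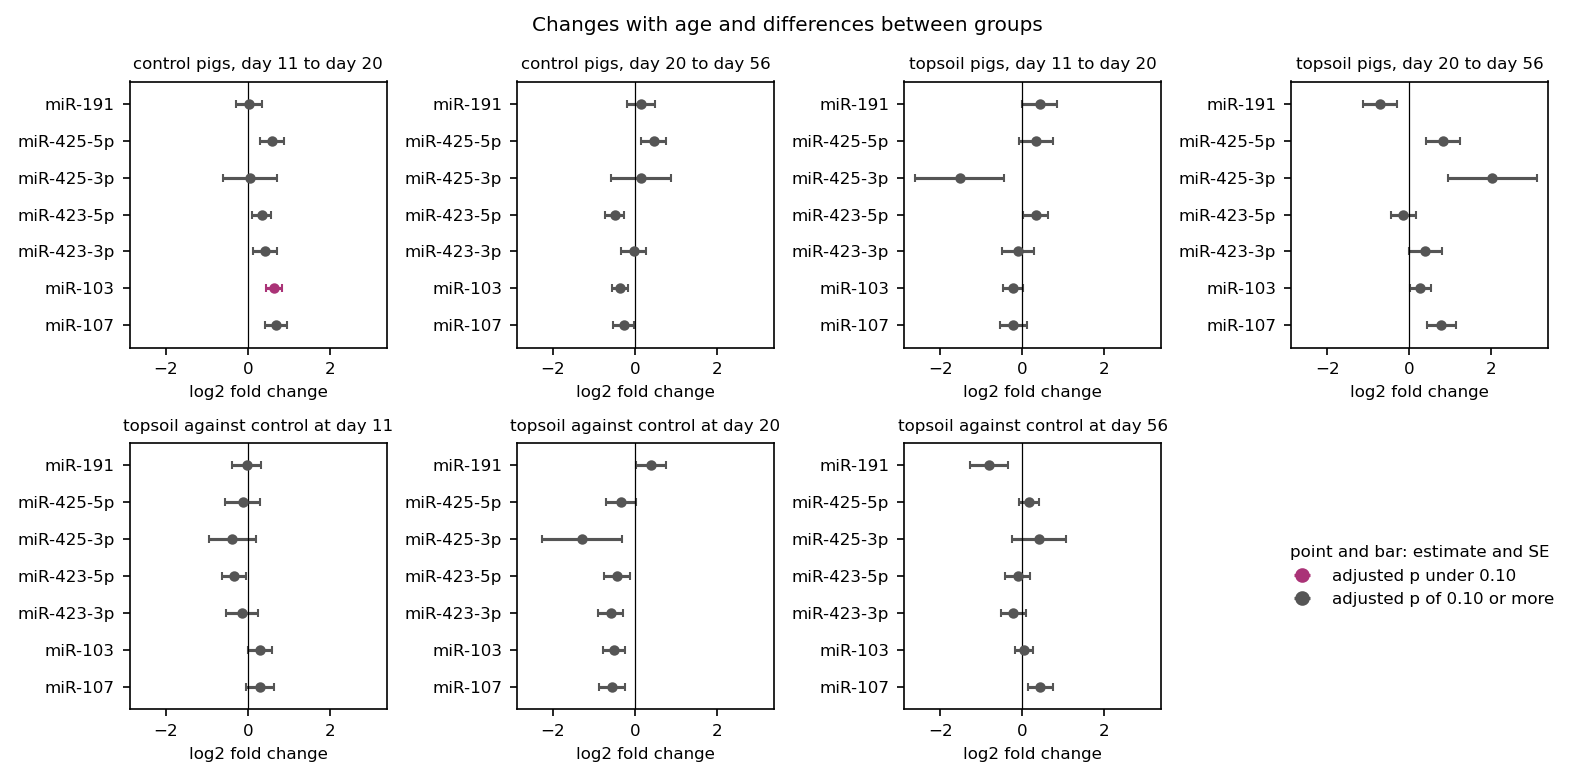
Log2 fold change with its SE (horizontal axis) of each of the 7 miRNAs (vertical axis), for the age changes within each treatment (upper panels) and for topsoil against control pigs at each age (lower panels). The single coloured point is miR-103 in control pigs from day 11 to day 20, 0.64 with an SE of 0.19, and the other estimates had an adjusted p of 0.10 or more.

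Stability was measured as the SD of log2(CPM + 1) over the 39 libraries. It was ranked among the 117 tested miRNAs with a mean of at least 100 reads. Upper quartile scaling, used first, holds miRNAs close to its quantile point steady by construction. The members nearest that point by total reads were miR-103, miR-423-3p, miR-107 and miR-425-5p (ranks 36, 44, 58 and 60). Far above it were miR-191 (rank 5) and miR-423-5p (rank 8). How far closeness to that point lowered the SD of a member was not tested. The least variable member was miR-103, with an SD of 0.376 and rank 2 of 117. Next came miR-423-5p (SD 0.472, rank 12), miR-107 (0.522, rank 21) and miR-423-3p (0.572, rank 29), which together with miR-103 made 4 members among the 29 miRNAs with the smallest SD. The median SD of the 117 was 0.733, and miR-425-5p (0.658, rank 45) and miR-191 (0.73, rank 57) lay just below it. The most variable was miR-425-3p, with an SD of 1.14, the 3 libraries with 0, 0 and 1 reads of it included. In the 36 libraries with more than 3 reads of it the SD was 0.590, though leaving out low libraries lowers it by construction. Under upper quartile scaling the order did not follow abundance, since the most abundant member, miR-191, ranked sixth of the 7. Without the control replicate 7 library of day 56 the SD of miR-191 was 0.625, below that of miR-425-5p (0.654). Under TMM, miR-191 ranked 42 of 117, ahead of miR-425-5p at 45.

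A set of 6 other miRNAs often used as references in blood gave a scale for these values. The closest was let-7i-5p, with an SD of 0.376 and rank 3, followed by let-7a (rank 9), miR-16 (rank 24), miR-26a (rank 37), miR-30e-5p (rank 46) and miR-24-3p (rank 61). Under the 4 other scalings let-7i-5p ranked ahead of miR-103: 2 against 4 (TMM), 2 against 3 (DESeq2 size factors), 1 against 7 (totals without miR-486) and 24 against 38 (total counts). Under upper quartile scaling, none of these 6 was called by edgeR in any comparison of age or treatment. A listed reference, miR-93, had no row in the table and was not analysed here.

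Under upper quartile scaling, more of each member's variance lay within groups than between them. Within groups the pooled SD was 0.331 for miR-103, 0.448 for miR-423-5p, 0.455 for miR-107, 0.51 for miR-425-5p, 0.555 for miR-423-3p, 0.753 for miR-191 and 1.03 for miR-425-3p. The widest gap between group means was 0.63 for miR-103, between control pigs at day 20 and control pigs at day 11. For miR-191 the share of variance between groups was 7.57%, the smallest of the set under this scaling. Without the control replicate 7 library of day 56 it was 15.7%. That share depended on the scaling: it was 14.4% under TMM and 15.5% under DESeq2 size factors, where miR-423-3p had the smaller share (10.4% and 10.0%), and 63.0% under total counts. Under total counts the share between groups was over 50% for each member except miR-425-3p (49.0%). Ranges of neighbouring groups in the order of means overlapped for each member, so no full order of the groups could be given.

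The ranking depended on the scaling. Under TMM and DESeq2 size factors miR-103 ranked 4 and 3, and miR-423-5p 16 and 17. With totals that leave out miR-486, miR-103 ranked 7 while miR-107 and miR-423-5p ranked 30 and 31, just outside the first 29. With total counts, which miR-486 dominates, the median SD of all 117 rose to 1.51, and miR-191 became the least variable member (SD 1.08, rank 13), ahead of miR-423-5p (rank 36) and miR-103 (rank 38). Under total counts each of the 7 members was also called as higher at day 56 than at day 20 in topsoil pigs, by 1.67 to 3.80 on the log2 scale, but 50.7% of the 209 tested miRNAs were called there, and their median moved by 2.65.

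**Figure D3:**
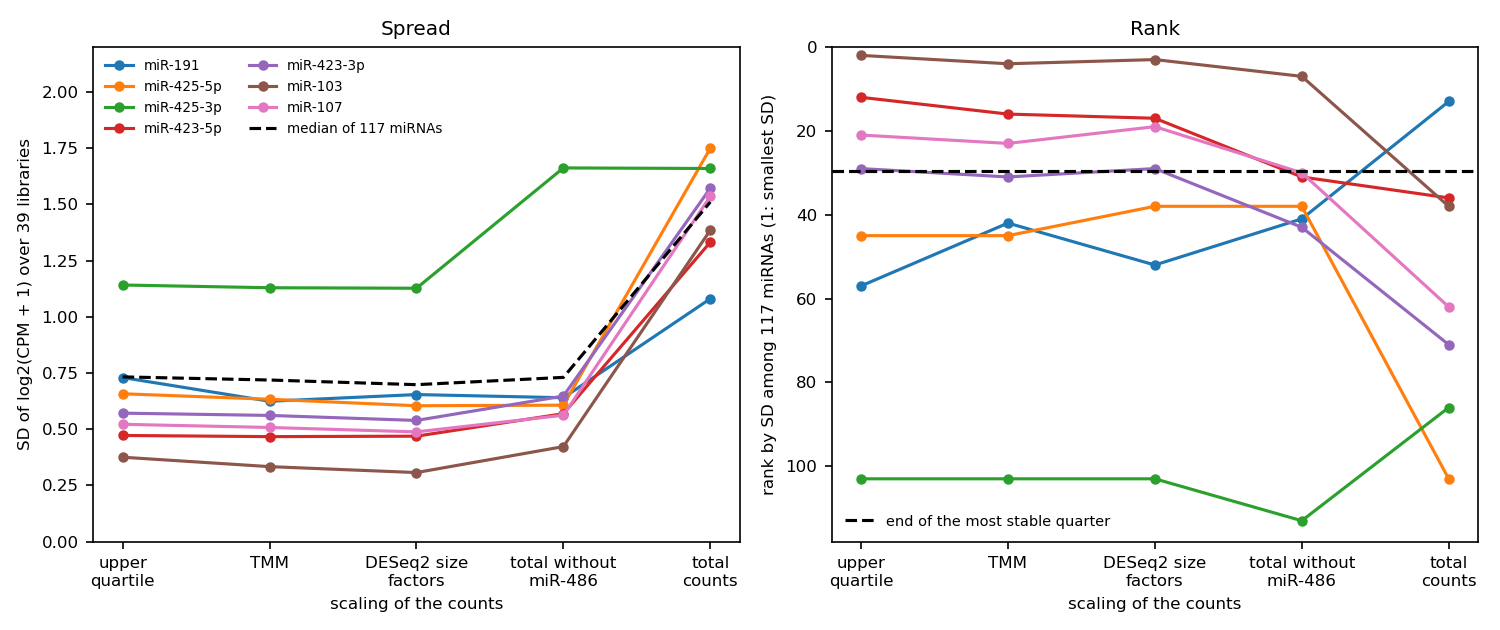
SD of log2(CPM + 1) over the 39 libraries (left) and rank of that SD among 117 miRNAs (right, rank 1 at the top), for the 7 miRNAs under 5 scalings of the counts (horizontal axis). The dashed lines give the median SD of the 117 miRNAs and the end of the 29 smallest. From upper quartile to total without miR-486, miR-103 keeps a rank of 2 to 7, whereas under total counts miR-191 ranks first of the set at 13.

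Ratios of reads between members within a library need no scaling. Over the 39 libraries the steadiest of the 21 pairs was miR-103 to miR-107, with a mean ratio of 4.02 and an SD of the log2 ratio of 0.381. Next was miR-423-5p to miR-423-3p, arms of the same hairpin, with a mean ratio of 25.1 and an SD of 0.463. The arms of MIR425 had an SD of 1.87, but 3 libraries with 0, 0 and 1 reads of miR-425-3p set this value through the added 0.5 reads. In the other 36 libraries the SD was 0.807, around a mean ratio of 5.17, though libraries left out for a low miR-425-3p lower this SD by construction. For miR-191 to miR-425-5p, whose hairpins lie in the same gene, the SD was 1.07 around a mean ratio of 179. The mean SD against the other 6 members, the ratio to miR-425-3p and its 3 libraries of 0 or 1 read included, was lowest for miR-103 (0.792) and 0.852 to 1.12 for the next 5. For miR-425-3p it was 1.91, and 0.810 in the 36 libraries with more than 3 reads of it, again lowered by construction.

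The ratio of miR-103 to miR-107 was near 4 in most groups and lower in topsoil pigs at day 56. It averaged 4.44 and 4.15 in control and topsoil pigs at day 11 and 4.33 and 4.25 at day 20. At day 56 the 5 topsoil values were 3.16, 2.79, 2.26, 2.8 and 3.6, and the control values were 4.23, 6.11, 3.91, 4.62, 3.92, 5.57, 1.6 and 3.41. All 5 topsoil values at day 56 lay below 6 of the 8 control values, and all 5 topsoil pigs had a lower ratio than at day 20. The control value of 1.6 was again the replicate 7 library, where miR-107 had 1208 reads. With all libraries the difference in mean log2 ratio, topsoil minus control, was -0.44 (exact permutation test, two-sided, p = 0.157, adjusted over 9 tests p = 0.699). Without that library it was -0.62 (exact permutation p = 0.00505, adjusted p = 0.0455). These tests of 3 ratios at 3 ages were chosen after the values had been seen, and the assignment of reads between the near-identical strands limits what they measure.

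The ratio of the MIR423 arms was most even in control pigs at day 20, at 22.7 to 29.4, and spread from 14 to 43.2 elsewhere. Topsoil values at day 20 were 39.6, 23.7, 40.3, 31.4 and 23.2, and the difference from control pigs was 0.22 on the log2 scale (exact permutation p = 0.176, adjusted p = 0.699). For miR-191 to miR-425-5p, the topsoil ratios at day 56 were 85.6, 122, 98, 61.9 and 76.5, and each of the 5 pigs had a higher ratio at day 11, where the values were 353, 455, 298, 85.7 and 205. The control ratios at day 56 ran from 20 to 535, and the difference of -0.59 was within this spread (exact permutation p = 0.389, adjusted p = 0.699). Without replicate 7 it was -0.97 (exact permutation p = 0.048, adjusted p = 0.216).

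**Figure D4:**
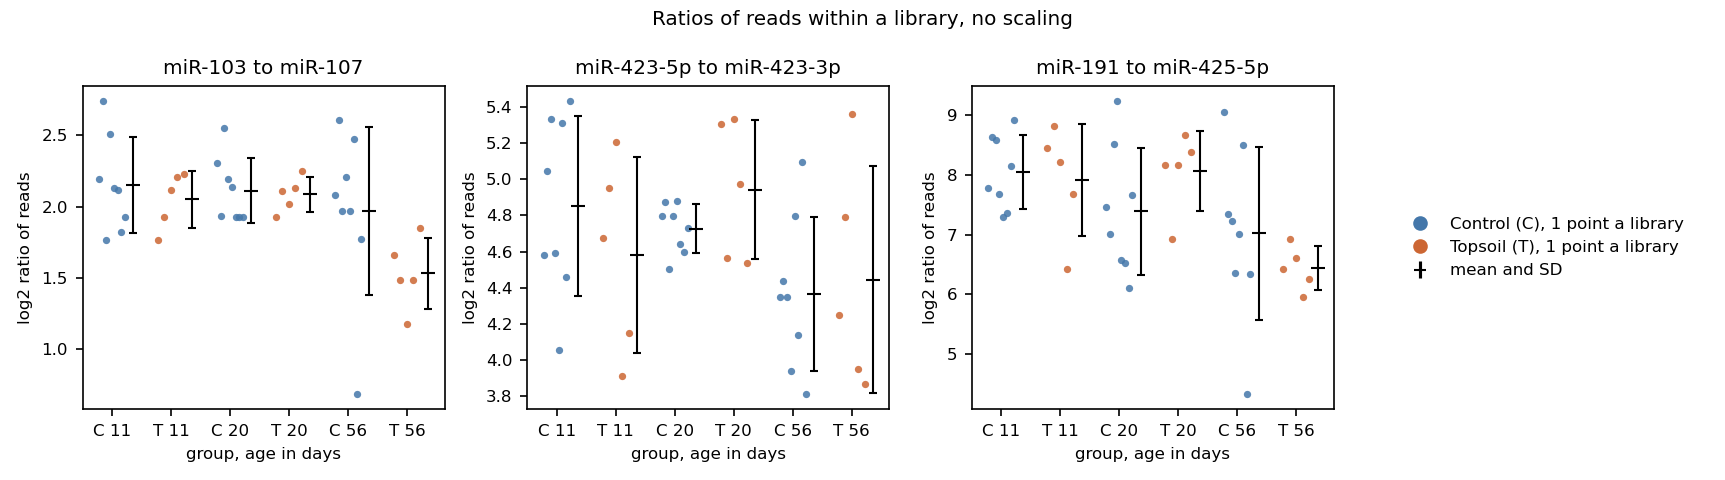
Log2 ratio of reads (vertical axis) for miR-103 to miR-107, miR-423-5p to miR-423-3p and miR-191 to miR-425-5p by treatment (C for control, T for topsoil) and age in days (horizontal axis). Each point is a library and the bar gives the mean and SD. Topsoil pigs at day 56 have a mean miR-103 to miR-107 ratio of 2.89, against 3.92 in control pigs, where the replicate 7 library is the lowest point at 1.6.

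Each member was also compared with the other 110 tested miRNAs that had a mean of at least 100 reads, by the SD of the log2 read ratio over the 39 libraries. The miRNA most like miR-103 was miR-140-3p (SD 0.374), followed by miR-16 (0.386) and let-7g (0.389). For miR-107 it was miR-186-5p (0.427), with let-7g and miR-16 next. The closest to miR-423-5p was miR-92a (0.41), which was also near miR-423-3p (0.42) behind miR-30d (0.413). For miR-191 it was miR-30e-3p (0.382), less than its SD against any other member, the smallest of which was 0.789, and miR-342, a lymphocyte miRNA, came next (0.509). For miR-425-5p it was let-7d-5p (0.445). For miR-425-3p the smallest SD was 1.51, to miR-4331-5p, with the 3 libraries of 0 or 1 read included.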

How the data were processed

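Small RNA libraries of PBMC from 8 control and 5 topsoil pigs at 3 ages (39 libraries, 1634831 to 13494765 reads each, no molecular identifiers) were analysed. Reads were checked with FastQC 0.11.3, trimmed with Trim Galore 0.4.5 and aligned to Sscrofa11.1 with miRDeep2 (version not given in the sources used here). The authors deposited raw read counts per mature miRNA, and their mRNA counts were not used here. Groups and ages followed the sample descriptions, which match the column names, whereas the characteristics of most miRNA samples disagree with them. RNA quality index (RQI) values came from the study's sample sheet.

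For each mature name the entry with the larger total was kept, and testing needed a read in at least 17 libraries and an average of over 2 reads. After upper quartile scaling (0.75), the models were fitted with edgeR 4.0.16 in R 4.3.3, with age, treatment by age, RQI and the pig as a block, since each animal was sampled at every age. Treatments were compared within an age with RQI alone. SE was the size of the log2 fold change over the square root of F. On simulated counts for control pigs from day 11 to day 20, 24 of 40 miRNAs changed 4-fold were called among 209, with 1 false call. Libraries of a group differed beyond sampling noise. Stability used a pseudocount of 1 CPM, ratios 0.5 reads. Alternatives were TMM, DESeq2 1.42.0, other totals and filters, no RQI, no block and single pigs left out. All members found by name are described, with the 3 miRNAs of smallest ratio SD to each and 6 other reference miRNAs. Members, lists and markers were chosen with earlier results of these data known, and the ratio tests, variance shares without a library and values without libraries of 3 or fewer reads of miR-425-3p after seeing the values.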

Additional observations from a re-analysis of the deposited data

Results flagged for a closer look

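Of 42 sets of values (7 members in 6 groups), 4 held a library far from the rest of its group by Dixon's ratio, where chance alone gives about 2.1 (1 in 20). In control pigs at day 56, miR-425-3p was at 0.103 CPM in replicate 6 (1 read), and the next lowest value was 12.5 CPM. In the same group, miR-423-3p was at 68.4 CPM in replicate 7, against 188 CPM for the next. This library had the fewest reads of the series. In topsoil pigs at day 20, miR-423-3p was at 194 CPM in replicate 2, above the next value of 133 CPM. In control pigs at day 20, miR-103 was at 746 CPM in replicate 2, above the next value of 465 CPM, and without that pig miR-103 was no longer called from day 11 to day 20.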

How the results depend on the processing

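The count of members called in control pigs from day 11 to day 20 was 1, and became 0 with TMM, with DESeq2 size factors, with total counts, with totals that leave out miR-486, with no filter on low counts and with every entry kept. It was 2 with the DESeq2 test (15.8% of all tested miRNAs called), and 0 to 2 when each pig was left out in turn. The fold change of miR-103 kept its direction in all 23 alternatives, from 0.41 to 1.32, and was past the threshold in 10. From day 20 to day 56, totals without miR-486 called 2 members in control pigs instead of 0 (13.9% of all tested miRNAs called), and in topsoil pigs total counts called 7 (50.7%) and the DESeq2 test 2 (21.1%) instead of 0. Members among the 29 most stable fell from 4 to 1 with total counts and with totals that leave out miR-486, numbered 3 with TMM and with no filter on low counts, and 3 to 4 with each pig left out. Without the replicate block for the pig, the paired age comparisons had 1 member called in control pigs from day 11 to day 20 and 0 in the others, as with it. The interaction and the treatment comparisons called 0 members under each alternative. Except where the construction of a setting shows it, the cause was not tested. Counting precision was lowest for miR-425-3p, with 0 to 449 reads in a library.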
